A study of Danio rerio with 13 samples.

Results

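Ribosomal protein genes were examined in ZF4 cells, a fibroblast line derived from zebrafish embryos, kept at a low temperature. The genes were chosen by the deposited pathway annotation, as those assigned to the KEGG ribosome pathway ko03010. This rule uses no expression value, but earlier results of these data were known when it was chosen. The rule gave 80 of the 32677 genes of the RNA table. As annotated, 49 encode proteins of the cytosolic large subunit, 30 of the cytosolic small subunit and 1 of the mitochondrial large subunit (mrpl13). The genes therefore represent the cytosolic ribosome, and 71 other genes with mrpl or mrps symbols lie outside this pathway in the table. A further 11 cytosolic ribosomal protein genes, among them rack1, rps12, rps16, rpl39, rps27.1 and rps27.2, also lie outside it. The 80 genes include rsl24d1, annotated as a protein with an L24 domain and known in yeast and human as a ribosome assembly factor, and ENSDARG00000095752, a gene without a symbol whose annotation is ribosomal protein L4.

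Cells were kept in the cold at 18°C, either for 30 days (18°C /30d) or for a shorter time of 5 days (18°C /5d), or at the usual 28°C. RNA-seq was done on 3 libraries of each condition, 9 in all, and methylated DNA immunoprecipitation sequencing (MeDIP-seq) on 1 library of each condition, made from the pooled DNA of 3 cultures. All cells came from the same line and medium, and the control cells at 28°C served both times, so the comparisons with 28°C share their 3 control libraries. Of 10 fibroblast markers 9 were found in the table and 7 exceeded 1 CPM (a count scaled to the library total) in every library. Those found that did not were vim, with 0.862 to 2.64 CPM, and acta2, with 0.951 to 20.2 CPM. Summed fibroblast markers amounted to 3867 to 5518 CPM at 18°C /30d, 3967 to 4807 CPM at 18°C /5d and 4136 to 7880 CPM at 28°C, with col1a1a the highest.

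Each ribosome is built from ribosomal RNA and about equal molar amounts of its ribosomal proteins, so their genes are usually expressed together and at high levels in dividing cells. In vertebrates the mRNAs of these proteins begin with a tract of pyrimidines, the TOP motif, through which mTOR signaling and the RNA-binding protein Larp1 regulate their translation. Translation slows in the cold in animal cells, and the mitochondrial ribosome is made of a separate set of proteins, encoded by the mrpl and mrps genes of the nucleus.

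The libraries differed in depth, with 21407769 to 44853311 gene counts at 18°C /30d, between 22504969 and 41403897 at 18°C /5d, and between 22269276 and 42137732 in the 28°C libraries. The lowest total of each condition was that of replicate 3. These libraries also differed in composition. The deposited RPKM values, which are counts relative to gene length and library total, summed to between 417241.5 and 431960.9 in the replicate 3 libraries. In the other libraries the sums ran from 320264.5 to 346391.7. The 28°C replicate 3 library also stood apart in proliferation markers, of which 13 of 14 were found and which summed to 152 CPM there, against 1724 and 1746 CPM in 28°C replicates 1 and 2. The other replicate 3 libraries had 544 CPM of these markers at 18°C /30d and 882 CPM at 18°C /5d. Cold replicates 1 and 2 had 835 and 1243 CPM at 18°C /30d and 1018 and 1265 CPM at 18°C /5d. These sums were also below those of 28°C replicates 1 and 2, but they do not describe each marker. In the fit of all libraries described below, 8 of the 13 were lower and 5 higher at 18°C /5d than at 28°C. All 13 were lower at 18°C /30d, and none was called at either time. Of all genes tested, 50.6% and 50.7% were lower, in the same order. Of the cell type markers other than those of fibroblasts, the highest sum was that of epithelium, from 102.7 to 262 CPM at 18°C /30d, from 101.8 to 320.6 CPM at 18°C /5d and from 164.4 to 338.8 CPM at 28°C. The highest sum at 28°C was that of replicate 3, where krt4 had 171.2 CPM, against 3.87 and 8.32 CPM in replicates 1 and 2. The highest epithelium marker on average was cdh1. The sums for muscle, neuron, blood and pigment cell markers were at most 85.9 CPM in any library, and no marker was at 0 in all of them. The part of these differences in the results was not tested.

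The 80 genes held a large share of the mRNA counts. In such bulk samples, fewer cells with a transcript and less of it per cell cannot be told apart. They took 6.40%, 7.98% and 4.36% of all gene counts in the 18°C /30d libraries, 5.98%, 6.99% and 5.73% in the 18°C /5d libraries, and 9.42%, 9.37% and 4.93% in the 28°C libraries, in the order of replicates 1 to 3. The mean share was 6.25% ± 1.81 at 18°C /30d, 6.23% ± 0.668 at 18°C /5d and 7.91% ± 2.57 at 28°C (SD, n = 3 each). In replicates 1 and 2 the share was lower at both cold times than at 28°C, while 28°C replicate 3 lay below all 3 libraries of 18°C /5d, so that the groups overlapped. With replicates 1 and 2 only, an alternative chosen after the libraries were seen, the mean shares were 7.19% at 18°C /30d, 6.49% at 18°C /5d and 9.39% at 28°C. Large and small subunit genes kept nearly the same proportion throughout, with a count ratio of 1.49 ± 0.0264 at 18°C /30d, 1.49 ± 0.00795 at 18°C /5d and 1.47 ± 0.0591 at 28°C (SD, n = 3 each).

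**Figure D1:**
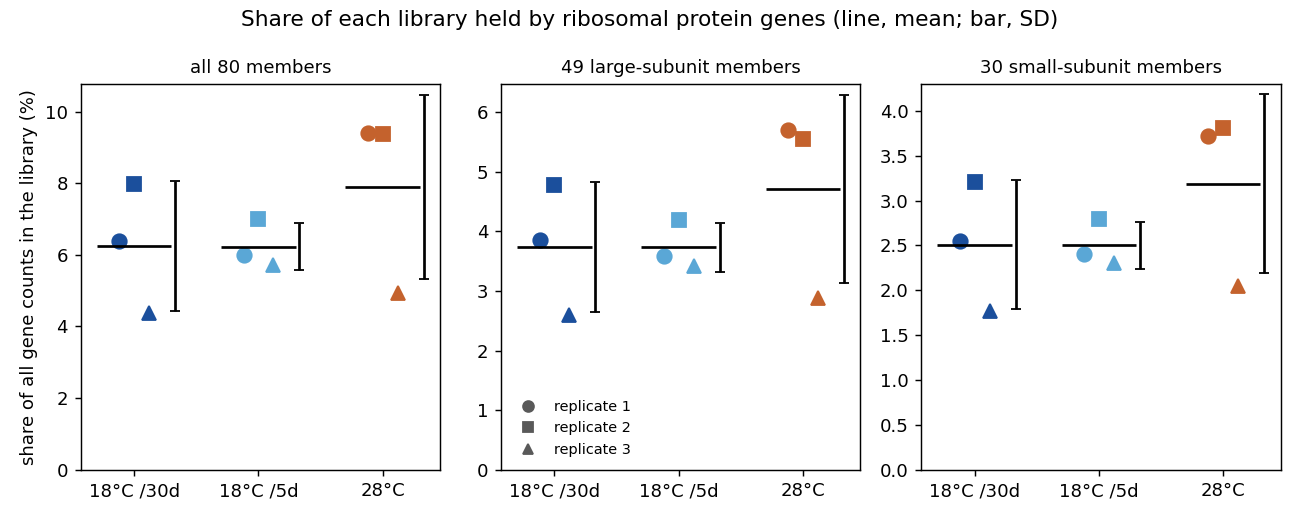
Share of all gene counts in each RNA library, in percent, held by the 80 ribosomal protein genes, by the 49 genes of the cytosolic large subunit and by the 30 genes of the small subunit, for 18°C /30d, 18°C /5d and 28°C. Points are libraries with the replicate given by the symbol, lines are means and bars SD (n = 3), and 28°C replicate 3 at 4.93% lies far below the other 28°C libraries at 9.42% and 9.37%.

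Within a library, levels were compared between genes by the deposited RPKM values, which relate the counts to the gene's listed length and to the library total. Averaged over the 9 libraries, rps20 was the highest of the 80 genes (1668 RPKM), followed by rps27a (1260 RPKM), rpl26 (1081 RPKM) and rpl35 (1077 RPKM). Rps20 is a small subunit protein, and rps27a encodes a small subunit protein fused to ubiquitin. For rps20 the level was 1395 ± 459 RPKM at 18°C /30d, 1475 ± 415 RPKM at 18°C /5d and 2135 ± 781 RPKM at 28°C (SD, n = 3 each). At the other end, mrpl13 had 20.5 RPKM, rpl22l1, the paralog of rpl22, had 16.1 RPKM, and ENSDARG00000095752 had 0.482 RPKM. These values depend on the listed lengths, which ran from 315 bases for rpl29 to 10216 bases for rpl13a (114.6 RPKM), so that the order of the levels is only as good as these lengths.

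To find out which of the genes differed between conditions, all 19622 genes with enough counts were fitted together with the quasi-likelihood F-test of edgeR, with Benjamini-Hochberg adjustment over all of them. All 80 ribosomal protein genes passed the filter on low counts. None was called in any comparison at an adjusted p under 0.05. For 18°C /30d vs 28°C the background was small too, since 0.0408% of all genes tested were called higher and 0.0204% lower, and it was 0% in both directions for 18°C /5d vs 28°C as well as between the cold times. The lowest adjusted p of a ribosomal protein gene by edgeR was 0.29 for 18°C /30d vs 28°C and 0.307 for 18°C /5d vs 28°C. With the replicate number as a block, which raised the background to 1.02% higher and 0.494% lower at 18°C /30d and to 0.127% higher and 0.133% lower at 18°C /5d, again 0 of the 80 were called, as with DESeq2, whose background was 3.23% higher and 1.58% lower at 18°C /30d and 1.83% higher and 1.1% lower at 18°C /5d. Between 18°C /30d and 18°C /5d, 0.0102% of all genes tested were called higher by DESeq2 and 0% by edgeR with the block.

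At an unadjusted p under 0.05, 1 gene was higher and 1 lower for 18°C /30d vs 28°C, against 7.99% and 5.67% of all genes tested. For 18°C /5d vs 28°C, 1 was higher and 2 were lower, against 6.17% and 5.15%. For 18°C /30d vs 18°C /5d there was 0 in either direction, against 0.907% and 0.377%. These counts were below the background shares, and the lower genes were rpl26 at both times and rplp2l at 18°C /5d.

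The fitted changes lay mostly on one side. The log2 fold change was below 0 for 73 of 80 genes at 18°C /30d vs 28°C, against 50.7% of all genes tested, and for 78 of 80 at 18°C /5d vs 28°C, against 50.6%. The median log2 fold change of the 80 genes was -0.26 for the longer and -0.33 for the shorter cold time, against -0.01 over all genes tested at both times. The quartiles were -0.37 and -0.17 for the longer time, and -0.48 and -0.26 for the shorter time, while the median standard error of a single gene was 0.44 in both comparisons. The large subunit had medians of -0.25 and -0.33 and the small subunit -0.30 and -0.35, at 18°C /30d and 18°C /5d in turn. For 18°C /30d vs 18°C /5d, 14 of 80 genes lay below 0, against 47.9% of all genes tested, and the median was 0.09, against 0.01 over all genes tested. The 80 genes were measured in the same libraries, so these are not 80 independent values.

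The medians moved by more than 1.5 times with some single libraries, but not with others. At 18°C /30d vs 28°C, the median of the large subunit was -0.52 without 28°C replicate 3, -0.54 without 18°C /30d replicate 2, -0.01 without 18°C /30d replicate 3, -0.03 without 28°C replicate 1 and -0.15 without 28°C replicate 2, and that of the small subunit was -0.58, -0.62, -0.02, -0.05 and -0.15 in the same order. Without 18°C /30d replicate 1 they were -0.26 for the large and -0.28 for the small subunit. At 18°C /5d vs 28°C, the large and small subunit medians were -0.65 and -0.65 without 28°C replicate 3 and -0.10 and -0.13 without 28°C replicate 1. Without 28°C replicate 2 or any single 18°C /5d library, these medians lay between -0.42 and -0.25. With replicates 1 and 2 only, they were -0.27 and -0.31 for 18°C /30d vs 28°C, and -0.61 and -0.62 for 18°C /5d vs 28°C. For 18°C /30d vs 18°C /5d, where the medians of the large and small subunit were 0.06 and 0.09, they were -0.25 and -0.25 without 18°C /30d replicate 2 and 0.34 and 0.36 without 18°C /30d replicate 3, so that the sign itself changed with 1 library.

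**Figure D2:**
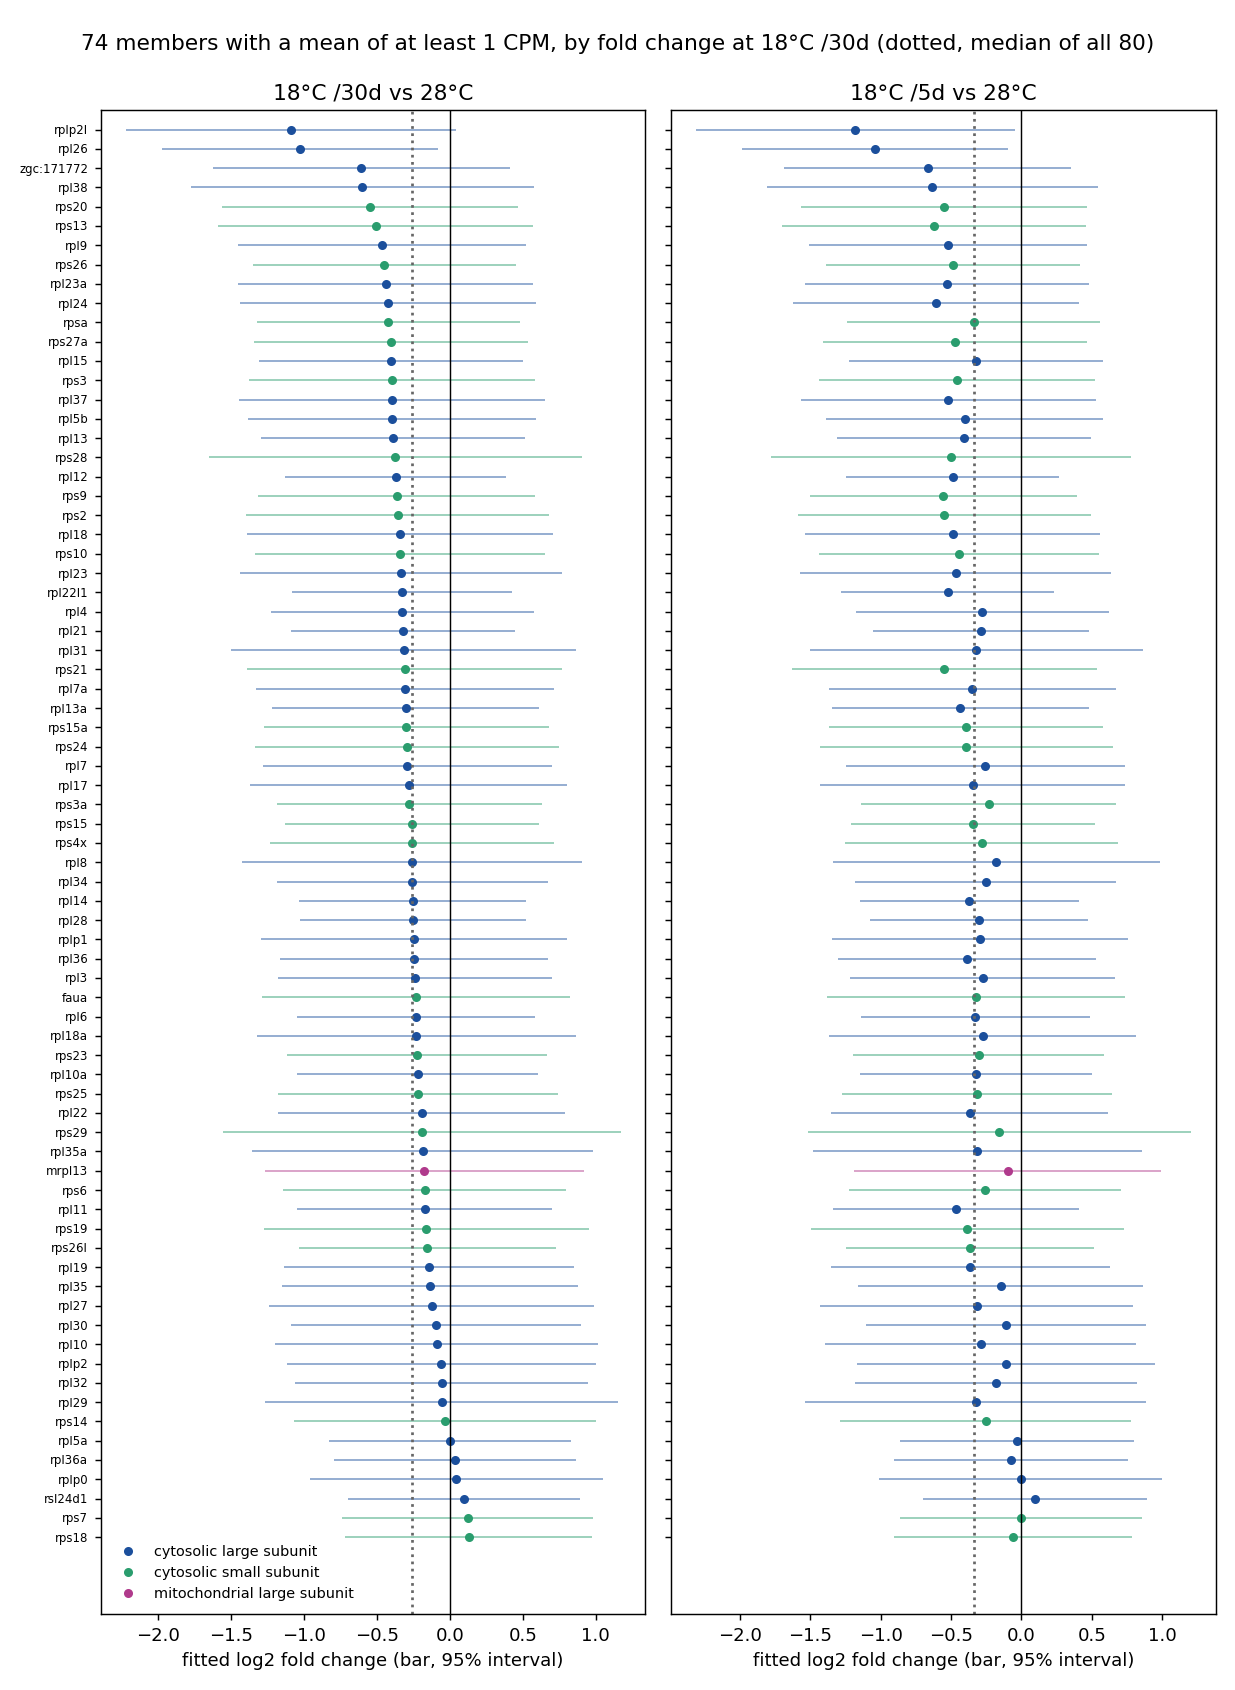
Fitted log2 fold changes of 74 of the 78 ribosomal protein genes with a mean of at least 1 CPM for 18°C /30d vs 28°C (left) and 18°C /5d vs 28°C (right), with 95% intervals as bars, coloured by subunit and ordered by the value at 18°C /30d. The dotted lines are the medians of all 80 genes, -0.26 and -0.33, and rplp2l and rpl26 lie lowest in both panels, near -1.

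Libraries with the same replicate number were then set against each other. The median log2 ratio of the 80 genes for 18°C /30d vs 28°C was -0.62 in pair 1, 0.01 in pair 2 and -0.17 in pair 3. For 18°C /5d vs 28°C it was -0.74 in pair 1, -0.43 in pair 2 and 0.37 in pair 3. In the same pairs, the median over all genes tested stayed between -0.02 and 0.06. Pair 1 was uniform, with 79 of 80 genes lower at 18°C /30d and 79 of 80 at 18°C /5d. In pair 2, 38 of 80 were lower at 18°C /30d and 77 at 18°C /5d, and in pair 3, 60 were lower at 18°C /30d and 11 at 18°C /5d. Lower in all 3 pairs were 32 of the 80 at 18°C /30d, where 18.6% of all genes tested were, and 11 at 18°C /5d, where 18.9% were. Higher in all 3 pairs was 1 gene at each cold time, against 22% of all genes tested at each. For 18°C /30d vs 18°C /5d the pair medians were 0.12, 0.44 and -0.56, and 0 of the 80 genes were lower in all 3 pairs, against 11.6% of all genes tested, and 1 was higher in all of them, against 12.6%.

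**Figure D3:**
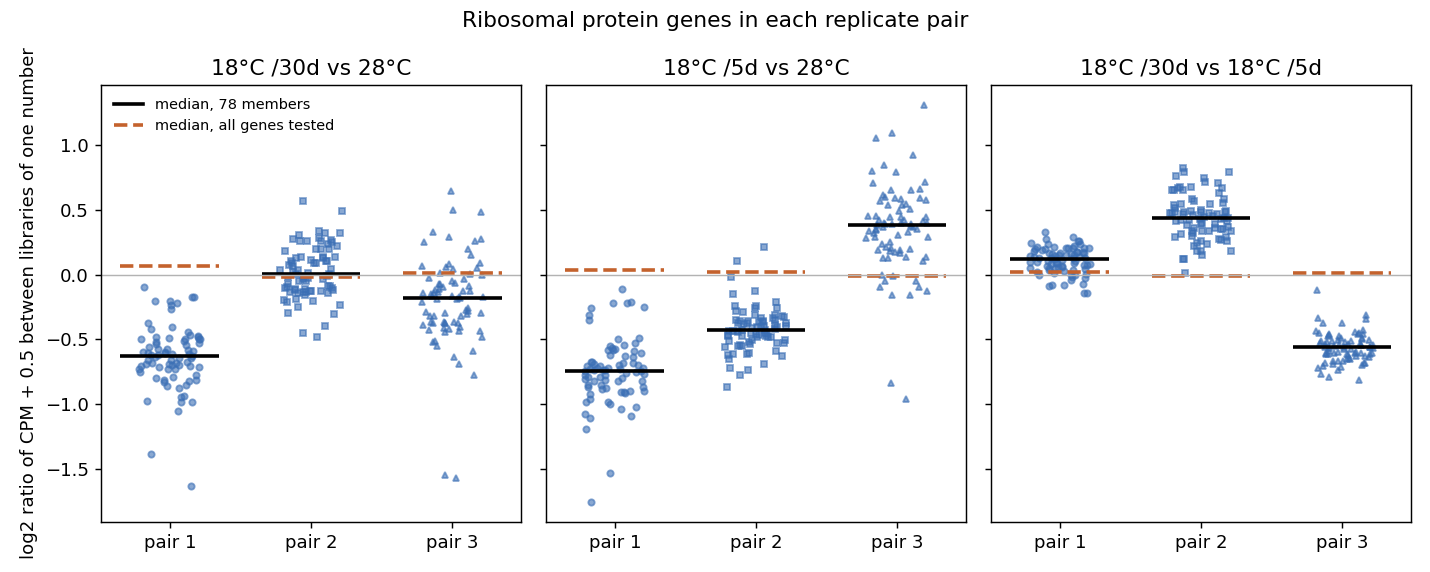
Log2 ratios of CPM + 0.5 between libraries of the same replicate number for the 78 ribosomal protein genes with a mean of at least 1 CPM, in the 3 comparisons. Each point is a gene, black lines are the medians of the genes shown and dashed lines the medians of all genes tested. In most pairs most genes lie on one side of 0, but not on the same side in every pair. In pair 2 of 18°C /30d vs 28°C they lie on both sides, with 38 of 78 lower.

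The genes of the P-stalk, the flexible arm of the large subunit that recruits translation factors, did not have the same values. The stalk consists of the base protein Rplp0 and the acidic proteins Rplp1 and Rplp2, and rplp2l is annotated as a P2-like gene. For rplp2l the levels were 140.2, 237.8 and 65.2 CPM at 18°C /30d, 128.5, 187.8 and 99.8 CPM at 18°C /5d, and 435.1, 312.7 and 194.7 CPM at 28°C, as CPM after TMM normalization. All 18°C /5d libraries lay below all 28°C libraries, whereas at 18°C /30d replicate 2 lay above the lowest 28°C library. The log2 fold change of rplp2l was -1.09 ± 0.502 (SE) at 18°C /30d (edgeR adjusted p = 0.386) and -1.18 ± 0.503 at 18°C /5d (edgeR adjusted p = 0.423). With the replicate block the adjusted p was 0.0822 at 18°C /30d and 0.114 at 18°C /5d by edgeR, still above the threshold.

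The other stalk genes had log2 fold changes between -0.29 and 0.05. Rplp2 had 250.0, 338.3 and 105.9 CPM at 18°C /30d, 266.2, 259.9 and 145.5 CPM at 18°C /5d, and 288.0, 284.3 and 150.9 CPM at 28°C, and the groups overlapped. Its log2 fold change was -0.06 at 18°C /30d (95% interval -1.12 to 1.00) and -0.11 at 18°C /5d (-1.17 to 0.95). For rplp1 it was -0.24 and -0.29, and for rplp0, the base of the stalk, 0.05 and -0.01, in the same order of times. Rplp0 had 1351, 1611 and 902.3 CPM at 18°C /30d, 1229, 1265 and 1234 CPM at 18°C /5d and 1523, 1644 and 577.1 CPM at 28°C. The 18°C /5d libraries of rplp0 lay close together, and the spread at the other conditions came mostly from replicate 3.

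Because rplp2l and rplp2 were measured in the same libraries, their ratio does not depend on the scaling of a library. In RPKM, the 18°C /30d libraries had ratios of rplp2l to rplp2 of 1.34, 1.69 and 1.48, the 18°C /5d libraries of 1.16, 1.73 and 1.64, and the 28°C libraries of 3.62, 2.64 and 3.09. Every cold library lay below every 28°C library. The mean ratio was 1.5 ± 0.172 at 18°C /30d, 1.51 ± 0.310 at 18°C /5d and 3.12 ± 0.493 at 28°C (SD, n = 3 each). The exact two-sided permutation test gave p = 0.1 at each time, which is the smallest value that 3 against 3 libraries allow, and 0.15 after Benjamini-Hochberg adjustment over the 12 ratios compared with 28°C. The 6 paralog pairs behind these 12 comparisons were put together with the values known, and 4 of them are described.

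**Figure D4:**
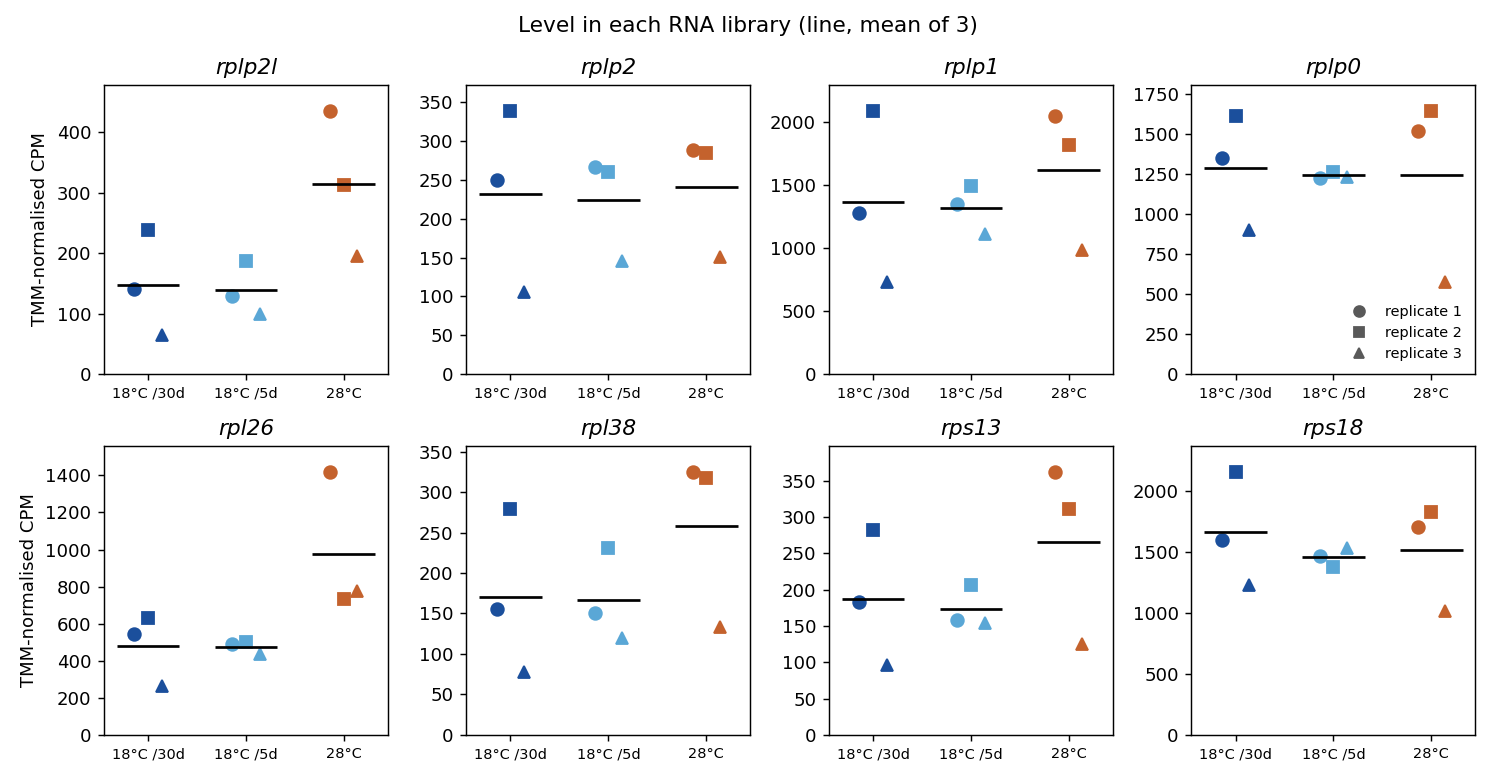
TMM-normalised CPM in each of the 9 RNA libraries for the stalk genes rplp2l, rplp2, rplp1 and rplp0 and for rpl26, rpl38, rps13 and rps18, with 18°C /30d, 18°C /5d and 28°C from left to right. Symbols give the replicate and lines the mean of 3, and only rpl26 of these genes has all libraries of both cold times below all 28°C libraries.

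Rpl26, a large subunit protein at the exit of the nascent peptide tunnel, was the other gene near a 2-fold difference. It had 541.7, 633.2 and 265.4 CPM at 18°C /30d, 489.5, 502.3 and 434.5 CPM at 18°C /5d, and 1419, 734.7 and 778.0 CPM at 28°C. The cold libraries of both times lay below all 3 libraries at 28°C, and 28°C replicate 1 was nearly 2 times the other 28°C libraries. The log2 fold change was -1.02 ± 0.419 (SE) at 18°C /30d (edgeR adjusted p = 0.327) and -1.04 ± 0.419 at 18°C /5d (edgeR adjusted p = 0.392). Without 28°C replicate 1 these values were -0.65 and -0.67. Groups that did not overlap were found for 1 lower and 1 higher gene of the 80 at 18°C /30d, against 8.5% and 10.3% of all genes tested, and for 3 lower and 0 higher genes at 18°C /5d, against 8.35% and 9.27%. Between the cold times (18°C /30d vs 18°C /5d) there was 0 of either kind, against 2.31% lower and 3.19% higher.

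Relative to the median ribosomal protein gene of the same library, rplp2l and rpl26 also stood lowest. Among the 78 genes with a mean of at least 1 CPM, the difference of this relative log2 level between conditions ran from -0.97 (rplp2l) to 0.38 (rplp0) for 18°C /30d vs 28°C, and from -0.90 (rplp2l) to 0.38 (rplp0) for 18°C /5d vs 28°C. For rpl26 it was -0.82 after 30 days and -0.73 after 5 days. The other 76 genes lay within 0.5 of 0 at both times, and the SD over the 78 genes was 0.216 at each time. On this scale 12 genes were lower and 3 higher without overlap at 18°C /30d, and 10 were lower and 4 higher at 18°C /5d, more than on the TMM scale. The same scaling left 1.16% of all genes tested lower and 7.29% higher at 18°C /30d, and 1.6% lower and 9.99% higher at 18°C /5d. It sets the middle of the 78 genes to 0 in every library, so these counts and shares cannot be read against each other as a result about the genes.

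Among the remaining large subunit genes, the lowest fold changes were those of zgc:171772, annotated as L37Ae, and rpl38, which in mice is known for its role in the translation of Hox mRNAs. The gene zgc:171772 had a log2 fold change of -0.60 ± 0.451 at 18°C /30d and of -0.67 ± 0.452 at 18°C /5d, and rpl38 of -0.60 ± 0.521 and -0.63 ± 0.521 (SE). Rpl38 had 156.1, 278.7 and 77.7 CPM at 18°C /30d, 150.4, 230.7 and 119.4 CPM at 18°C /5d, and 324.9, 317.8 and 133.0 CPM at 28°C. Replicate 3 was the lowest in every group of rpl38, and the groups overlapped through it. Rpl12, part of the stalk base, was the third gene without overlap at 18°C /5d, with 646.3, 614.0 and 651.0 CPM at 18°C /5d against 1086, 883.5 and 711.4 CPM at 28°C, and its log2 fold change was -0.49 ± 0.335 (SE, edgeR adjusted p = 0.671).

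Of the small subunit, rps20 and rps13 were among the 3 genes with the lowest values at 18°C /30d. Their log2 fold changes were -0.55 ± 0.450 and -0.51 ± 0.477 (SE), with edgeR adjusted p of 0.667 and 0.721. At 18°C /5d, rps13 (-0.62 ± 0.478) and rps9 (-0.55 ± 0.422) were among the 3 lowest, with edgeR adjusted p of 0.724 and 0.719. Rps20 had 794.0, 1034 and 416.5 CPM at 18°C /30d, 688.2, 949.6 and 606.6 CPM at 18°C /5d, and 1193, 1442 and 648.4 CPM at 28°C. As for rpl38, replicate 3 was lowest in each group and made the groups overlap.

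Among the 78 genes with a mean of at least 1 CPM, the highest log2 fold changes were 0.13 at 18°C /30d and 0.10 at 18°C /5d, and the 2 genes under that level are left out here. Among the genes annotated to the large subunit, rsl24d1, the assembly factor named above, had a log2 fold change of 0.10 ± 0.353 at 18°C /30d. At 18°C /5d it had 0.10 ± 0.353, and rpl36a had 0.04 ± 0.368 and -0.07 ± 0.368 at 18°C /30d and 18°C /5d. In the small subunit, at or above 1 CPM, rps18 had 0.13 ± 0.375 and -0.06 ± 0.375, and rps7 had 0.12 ± 0.380 and 0.00 ± 0.380 (SE). Rps18, whose mRNA is often used as a reference in RT-qPCR, had 1600, 2158 and 1233 CPM at 18°C /30d, 1469, 1374 and 1532 CPM at 18°C /5d, and 1707, 1832 and 1020 CPM at 28°C. The 95% interval of the difference for rps18 ran from -0.71 to 0.98 at 18°C /30d, so a change of less than about that size could not be told from none.

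Among other paralog pairs, the ratio of rpl5b to rpl5a was 0.641 ± 0.117 at 18°C /30d, 0.674 ± 0.0806 at 18°C /5d and 0.856 ± 0.0593 at 28°C (SD, n = 3 each), with no overlap between either cold time and 28°C. Rpl5 and Rpl11 are the proteins that, with a ribosomal RNA, restrain Mdm2 in mammals when ribosome assembly is disturbed. Rpl5a had a log2 fold change of 0.00 and -0.03, rpl5b of -0.40 and -0.40, and rpl11 of -0.17 and -0.47, at 18°C /30d and 18°C /5d in turn. For rpl5b to rpl5a the exact permutation p was 0.1 at each time, the smallest possible, and 0.15 after adjustment over the 12. The ratio of rps26l to rps26 was 5.61 ± 0.183, 5.05 ± 0.552 and 4.75 ± 0.589 at 18°C /30d, 18°C /5d and 28°C (SD, n = 3 each), with overlap at 18°C /5d but not at 18°C /30d (exact permutation p = 0.6 and 0.1, or 0.6 and 0.15 adjusted over the 12). That of rpl22l1 to rpl22 was 0.0370 ± 0.00554, 0.0357 ± 0.00823 and 0.0424 ± 0.0103 (SD, n = 3 each), with overlap at both times (exact permutation p = 0.5 at 18°C /30d and 0.4 at 18°C /5d). How reads that fit both copies of a pair were counted is not given in the sources used here.

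Rps27a and faua encode ribosomal proteins fused to ubiquitin or a protein like it. Rps27a had a log2 fold change of -0.41 at 18°C /30d and of -0.47 at 18°C /5d, and faua of -0.23 and -0.32. Rps6, the substrate of the S6 kinases downstream of mTOR, had 791.5, 994.4 and 444.3 CPM at 18°C /30d, 672.1, 715.8 and 711.8 CPM at 18°C /5d and 1114, 944.3 and 452.9 CPM at 28°C. The groups of rps6 overlapped, and its log2 fold change was -0.17 and -0.26. The genes rps19, which is mutated in Diamond-Blackfan anemia in people, rps4x and rpl7 had values of -0.16 and -0.38, of -0.26 and -0.28, and of -0.29 and -0.26. None of these passed the test.

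The only mitochondrial gene of the pathway, mrpl13, had 12.3, 19.9 and 8.41 CPM at 18°C /30d, 13.1, 18.2 and 11.6 CPM at 18°C /5d, and 21.5, 18.45 and 5.87 CPM at 28°C. The groups overlapped widely, and the log2 fold change was -0.17 ± 0.484 at 18°C /30d and -0.10 ± 0.484 at 18°C /5d (SE). Without 1 library it ran from -0.56 (without 28°C replicate 3) to 0.15 (without 28°C replicate 1) at 18°C /30d, and from -0.49 to 0.23 at 18°C /5d for the same libraries left out. Of 81 genes of mitochondrial translation outside the pathway, which comprise the 71 other mrpl and mrps genes and 10 factors, 66 had a log2 fold change below 0 at 18°C /30d and 67 at 18°C /5d. Among them 0 were called by edgeR, DESeq2 called 1 lower after 30 days and 0 after 5 days (1.58% and 1.1% of all genes tested), and 9 and 7 were lower and 0 higher at an unadjusted p under 0.05, against 5.67% and 5.15% lower and 7.99% and 6.17% higher. Their medians were -0.31 and -0.30. The lowest at 18°C /30d was mrpl46, a large subunit protein, with 3.75, 3.95 and 2.60 CPM at 18°C /30d and 11.7, 5.62 and 7.24 CPM at 28°C (log2 fold change -1.25, edgeR adjusted p = 0.174).

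The 11 cytosolic ribosomal protein genes outside the pathway annotation had medians of -0.22 for 18°C /30d vs 28°C and -0.31 for 18°C /5d vs 28°C, and 0 were called by edgeR or DESeq2. At an unadjusted p under 0.05 by edgeR, 1 was higher at 18°C /30d (rps27l) and 0 at 18°C /5d, against 7.99% and 6.17% of all genes tested. Rack1, a scaffold protein on the small subunit, had a log2 fold change of 0.05 and -0.06, rps27.1 of -0.24 and -0.17, and rps27.2 of -0.25 and -0.31. Rps27l was the highest of the 11 in fold change at 18°C /30d, with 113.9, 124.8 and 54.6 CPM at 18°C /30d, 45.4, 24.8 and 41.5 CPM at 18°C /5d and 60.9, 42.9 and 41.7 CPM at 28°C. Its log2 fold change for 18°C /30d vs 28°C was 1.01 (edgeR adjusted p = 0.270).

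Translation factors were listed for comparison, together with tpt1, naca, btf3 and nap1l1, which are not translation factors. Of the 49 listed genes tested, 25 had a log2 fold change below 0 at 18°C /30d and 29 at 18°C /5d. Their medians were -0.02 and -0.06, with 0 calls by edgeR. At an unadjusted p under 0.05 there were 2 higher and 4 lower at 18°C /30d and 1 higher and 6 lower at 18°C /5d, against 7.99% and 5.67% of all genes tested at the longer time and 6.17% and 5.15% at the shorter. DESeq2 called 1 and 2 lower, against 1.58% and 1.1%. With the replicate block 1 was called lower at each time, against 0.494% and 0.133%. This was eif3eb, a subunit of initiation factor eIF3 (log2 fold change -1.01 and -1.35 without the block, edgeR adjusted p with the block 0.0409 and 0.0446). Eef1a1l1, the elongation factor that delivers aminoacyl-tRNA and whose mRNA also has a TOP motif in vertebrates, had -0.23 and -0.30. Of 12 genes of mTOR signaling and its effectors, 10 were below 0 at 18°C /30d and 9 at 18°C /5d, with medians of -0.20 at both times and 0 calls by edgeR, while 3 and 2 were lower at an unadjusted p under 0.05 (5.67% and 5.15% of all genes tested) and 1 and 0 were called lower by DESeq2 (1.58% and 1.1%). The lowest was eef2k, the kinase that inactivates elongation factor eEF2, with 43.2, 32.6 and 47.7 CPM at 18°C /30d, 32.4, 62.7 and 46.1 CPM at 18°C /5d and 56.4, 96.3 and 145.0 CPM at 28°C. Its log2 fold change was -1.27 at 18°C /30d (edgeR adjusted p = 0.189).

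MeDIP-seq was used to ask whether methylation at these genes differed. In this method an antibody captures fragments with methylated cytosines, so that reads on a peak are a relative measure of methylation. The study assigned 58 of its 160561 peaks to 33 of the 80 genes, 15 of them in promoters, 11 in exons, 27 in introns and 5 downstream, and 47 genes had no peak. At least 1 peak was found for 41.3% of the 80 genes, against 73.2% of all genes tested and 57.5% of all genes of the RNA table. The listed length of the 80 genes had a median of 1602.5 bases, against 2905 bases over all genes tested. Whether length bears on the share with a peak was not tested. Only 1 of the 58 peaks, in an exon of rpl29, lay in a CpG island. With 1 pooled library per condition, a ratio compares libraries and has no replicate check, and the 58 peaks held 763 reads at 18°C /30d, 665 at 18°C /5d and 1022 at 28°C of 2406158, 2465050 and 2952954 reads on all peaks.

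Differences in methylation rested on small counts. The ratio of (RPM + 1), where RPM is the read number scaled to the total on all peaks, was past 2-fold for 10 peaks higher and 14 lower at 18°C /30d vs 28°C, against 14.2% and 17.3% of all peaks. For 18°C /5d vs 28°C, 12 were higher and 21 lower, against 18.1% and 23.2%. For 18°C /30d vs 18°C /5d, 16 were higher and 12 lower, against 21.9% and 19.8%. In 24 of the 24 peaks past 2-fold at 18°C /30d, in 31 of 33 at 18°C /5d and in 27 of 28 between the cold times, one of the libraries had a count of 0. Of the 58 peaks 17 (29.3%) had reads in all 3 libraries, against 47.7% of all peaks. A count of 0 allows up to 3 reads, or an RPM of 1.25 at 18°C /30d, 1.22 at 18°C /5d and 1.02 at 28°C, which covers counting error only.

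In promoters, the peak with most reads was that of rps23, a protein of the decoding center, at chr11:43633320-43635025 of Zv9/danRer7. It had 62 reads at 18°C /30d, 90 at 18°C /5d and 75 at 28°C, and ratios of 1.01 and 1.42 to 28°C. The promoter peaks of rsl24d1 (17, 14 and 17 reads) and rpl3 (11, 6 and 14 reads) also had reads at each condition, given here as 18°C /30d, 18°C /5d and 28°C, and none of these was past 2-fold. These 3 peaks were the only ones of the 15 with reads in every library.

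By the ratio of (RPM + 1), 2 promoter peaks were past 4-fold in the same direction at both times. Their folds are given against the limit of 3 reads, with the count of the other library taken as exact. They are not lower bounds, since that count has an error too and a 0 may hide more reads. The peak of rplp2 at chr6:49456569-49456898 had 0 reads at 18°C /30d, 0 at 18°C /5d and 14 at 28°C. Against the limit of 3 reads it was lower in the cold libraries by 3.80-fold after 30 days and 3.90-fold after 5 days. The rplp2 mRNA, with log2 fold changes of -0.06 and -0.11, did not differ beyond its spread. The peak of rps19 at chr16:26437465-26438390 had 13 reads at 18°C /30d, 12 at 18°C /5d and 0 at 28°C. Against the same limit it was higher by 5.32-fold after 30 days and 4.79-fold after 5 days. The rps19 mRNA had the log2 fold changes of -0.16 and -0.38 given above. For rplp2l no peak was assigned. Rpl26 had an exon peak at chr14:53371768-53372668 with 35, 21 and 61 reads at 18°C /30d, 18°C /5d and 28°C, and ratios of 0.718 and 0.440.

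Of the other promoter peaks, 4 had reads at 18°C /30d and 28°C and 0 at 18°C /5d. These were rps10 (14 and 20 reads at 18°C /30d and 28°C), rps3 (10 and 16 reads), rpl14 (10 and 11 reads) and faua (8 and 12 reads). They were lower at 18°C /5d than at 28°C. The smallest folds that the limit of 3 reads allows were 5.56 (rps10), 4.45 (rps3), 3.06 (rpl14) and 3.34 (faua). Conversely rpl13 (13 reads) and rpsa (11 reads) had promoter reads only at 18°C /5d, and rps27a (16 reads) and rpl29 (7 reads) only at 18°C /30d. The promoter peak of rplp1 had 0 reads at 18°C /30d, 7 at 18°C /5d and 9 at 28°C. Over all 15 promoter peaks, 3 were higher and 2 lower past 2-fold at 18°C /30d, against 14.3% and 16.4% of all promoter peaks, and 4 were higher and 5 lower at 18°C /5d, against 16.9% and 22.6%.

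**Figure D5:**
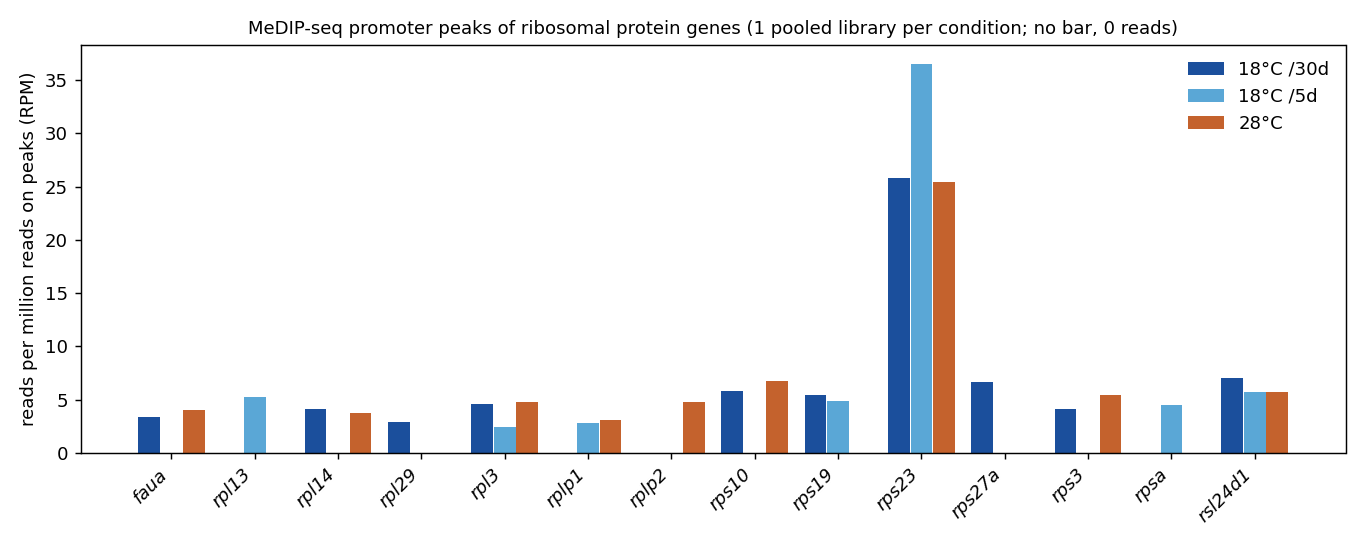
RPM on 14 of the 15 promoter peaks of ribosomal protein genes in the 18°C /30d, 18°C /5d and 28°C MeDIP-seq libraries, 1 pooled library each, so no error can be given. The absence of a bar stands for 0 reads, and only rps23, rsl24d1 and rpl3 have reads at all 3 conditions.

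Outside promoters, the largest counts were those of an exon peak of rps21 at chr23:9330978-9333121, with 96 reads at 18°C /30d, 75 at 18°C /5d and 163 at 28°C and ratios of 0.728 and 0.559. A downstream peak of rps10 had 57, 50 and 73 reads and an intron peak of rpl18 had 56, 55 and 46 reads, in the same order of conditions, and neither was past 2-fold. Past 2-fold with reads in all 3 libraries were only the exon peaks of rpl26 and rpl29 at 18°C /5d vs 28°C and that of rpl29 at 18°C /30d vs 18°C /5d (ratio 2.59), and rpl29 had 19 reads at 18°C /30d, 6 at 18°C /5d and 22 at 28°C. The 5 intron peaks of mrpl13 included 1 with 0, 0 and 32 reads and 1 with 20, 26 and 35 reads at 18°C /30d, 18°C /5d and 28°C.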

How the data were processed

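RNA-seq was done on 9 libraries (3 per condition) and MeDIP-seq on 3 libraries, each of pooled DNA from 3 cultures. The RNA table holds raw counts for each Ensembl gene as the authors deposited them, and RPKM values deposited beside them, which could be recomputed from counts, listed length and library total within 0.005. How RNA reads were aligned and counted is not given in the sources used here, and 9 columns labelled TPM and the authors' own fold changes and p-values were not used. The MeDIP-seq table holds counts of reads on merged peaks and RPM relative to all reads on peaks, both deposited by the authors, who used Bowtie2 (genome Zv9/danRer7), MACS for each library separately and Bedtools for merging. Peak annotation is the authors'. An input library was not analysed here.

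Counts were tested with edgeR 4.0.16 (TMM, filterByExpr, quasi-likelihood F-test, 9 libraries in one fit, no block). CPM are TMM-normalised. Ratios per library were compared with exact permutation tests (SciPy 1.17.1). Alternatives were a replicate block, DESeq2 1.42.0, scaling without the 80 genes or by the upper quartile, omission of the filter, a fit of only 6 libraries, a minimum fold of 2 and omission of each library in turn, and, added after the data were seen, replicates 1 and 2 only. The code was tested on simulated data. The same replicate numbers in the labels were taken as pairs, since libraries with the same number deviated together (correlations of 0.251 to 0.653, mean 0.457). Different numbers had a mean of -0.204 and a highest value of 0.491, between 18°C /30d replicate 2 and 28°C replicate 1. Deviations from the mean of a condition sum to 0, so the negative mean largely follows from the positive one. It is no separate support for the pairs. The low values were those of replicate 3 with 1 and 2, and numbers 1 and 2 were not separated from each other.

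Symbols came from the zebrafish KEGG best hit of at least 95% identity (69 of the 80 genes) or a table of gene names (10). The genes and lists were chosen with earlier results of these data known. Some genes are not reported here, though they count in the totals. Of the others, named are the 3 genes of each class with the largest rise and fall in each comparison with 28°C and a mean of at least 1 CPM, the highest in RPKM, the P-stalk, paralogs, ubiquitin fusions, rps6, rack1, rps19, rpl11 and genes with a promoter peak past 4-fold at both times. Rpl12, rpl38, rps27l, mrpl46, eif3eb, eef2k, eef1a1l1, the other listed levels, paralog ratios and peaks were chosen after their values were seen. Whether the RNA libraries of a condition came from separate cultures is not given in the sources used here, so p-values measure only the spread between these libraries, which may be technical.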

Additional observations from a re-analysis of the deposited data

How the results depend on the processing

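No ribosomal protein gene was called in any of the 42 alternatives, counted over the 3 comparisons. The minimum fold of 2 among them only filters the calls of the main fit, so its 0 was fixed in advance. The lowest adjusted p was 0.0822 (edgeR with the replicate block, 18°C /30d vs 28°C), 0.114 for 18°C /5d vs 28°C and 0.977 for 18°C /30d vs 18°C /5d. The number of calls over all genes did depend on the fit, with 12 for 18°C /30d vs 28°C by edgeR, 297 with the replicate block and 945 by DESeq2. The block changed no call of the 80 genes. With only peaks that have reads in all 3 libraries, 17 of the 58, the peaks past 2-fold numbered 0 in place of 24 at 18°C /30d, 2 in place of 33 at 18°C /5d and 1 in place of 28 for 18°C /30d vs 18°C /5d, since each 0 is left out. When 1 library was left out, the log2 fold change of mrpl13 for 18°C /30d vs 18°C /5d ran from -0.46 to 0.17. For rplp2l, it ran from -1.61 to -0.73 at 18°C /30d and from -1.46 to -0.87 at 18°C /5d over 13 alternatives, and for rpl26 from -1.28 to -0.65 and from -1.21 to -0.67. A median standard error of 0.44 for a single gene limits what 3 libraries can show.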
